A study of Hevea brasiliensis with 2 samples.

Results

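The plastid methylerythritol phosphate (MEP) pathway is represented here by 9 unigenes, transcript pieces assembled without a genome, out of 51192 unigenes listed for rubber tree latex. They are 2 unigenes of 1-deoxy-D-xylulose 5-phosphate synthase (DXS), 1 of the reductoisomerase that follows it (DXR) and 6 of hydroxymethylbutenyl diphosphate reductase (HDR). The files list them as Unigene39078_All and Unigene3946_All (DXS), Unigene6315_All (DXR), and Unigene4972_All, Unigene25794_All, Unigene8293_All, Unigene37446_All, Unigene20139_All and Unigene25720_All (HDR), and the ending is left off below. They were chosen by identifier, from best database hits that were given only for the 6726 unigenes the authors had called different between 2 clones. The difference between clones therefore served to choose the members, and it is described below with no p-value. Counts of members that pass a threshold are given only beside the share of all unigenes that do.

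Latex, the cytoplasm that flows from cut laticifer cells of *Hevea brasiliensis*, was collected from clones CATAS8-79, which the sample labels spell RY8-79, and PR107. The trees of both clones were untreated, had not been tapped before and were 3 years old by the labels, while the methods of the study give an older age. Latex of 5 trees was pooled per clone at tapping 1 and made into 1 poly(A) library per clone, so a clone is a single library here and no difference has a replicate check. The CATAS8-79 library had 6.92 megareads (M reads) placed on unigenes, the PR107 library had 6.87 megareads, and the median unigene had 38 and 40 reads. Levels are given as RPKM, which divides the reads of a unigene by its length and by the library total, and 1 read on a unigene of 1000 bp is worth 0.145 in CATAS8-79 and 0.146 in PR107. Ratios are log2 of PR107 over CATAS8-79, so a negative value is a higher level in CATAS8-79. All intervals are at 95% and cover counting error only, neither tree nor library, and reads that are PCR copies were not told apart.

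Of the laticifer markers looked up, Unigene37703, the Hev b 7 of the primer list, had 397 and 422 reads in CATAS8-79 and PR107. Unigene37088, listed as rubber transferase HRT2, had 24 and 6 reads, and Unigene823, whose best hit is small rubber particle protein, had 51 and 274. No best hit named rubber elongation factor or hevein among the unigenes searched, and the uncalled unigenes carry no best hit to search. For green tissue the search words found 8 unigenes, which had a summed RPKM of 215 in CATAS8-79 and 752 in PR107. Of these, 2 were called higher in CATAS8-79 and 6 in PR107, and without Unigene37668, the highest, the other 7 summed to 104 and 238. With the 8 unigenes of the photosystem I P700 apoproteins, which the search words left out, the sum turned to 4086 and 2220. For xylem and wood 6 unigenes were found, with a summed RPKM of 126 and 64.5, and without the laccase Unigene17497 the direction turned, to 47.4 and 53.4. The direction of a marker sum thus depended on single unigenes or on which were counted. The part of these transcripts in the results was not tested.

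Plants make isopentenyl diphosphate, the building block of rubber and of all other isoprenoids, by a mevalonate pathway outside plastids and by the MEP pathway inside them. DXS joins pyruvate and glyceraldehyde 3-phosphate in the entry reaction, which often limits the flow through the pathway, and DXR converts the product to methylerythritol phosphate. HDR, an iron-sulfur enzyme, carries out the last reaction and releases isopentenyl diphosphate together with its isomer dimethylallyl diphosphate. Plastids use these units for carotenoids, the side chain of chlorophyll, plastoquinone and several hormones, and rubber itself is thought to draw mainly on the mevalonate pathway.

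The primers of the study for quantitative PCR are shown for the 2 members they were designed on, since they are the stretches of the DXS and HDR transcripts that were chosen for measurement. They are written 5′ to 3′ in lower case, with no base marked.
Unigene3946 (DXS), forward: cattgttgttcttccctag
Unigene3946 (DXS), reverse: tcaggcatacccacata
Unigene25794 (HDR), forward: cttcgcgtcaagttatgt
Unigene25794 (HDR), reverse: aactctgccgcgtctcc
The primers are 17 to 19 bases long. G and C make up 42.1% and 47.1% of the DXS pair and 44.4% and 64.7% of the HDR pair. The unigenes have no chromosome position here, as no genome was used. The other 7 members have no primer in the list, though the study also names Unigene6315 (DXR) among the unigenes it measured by quantitative PCR.

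All 9 MEP unigenes had a higher level in CATAS8-79 than in PR107. Together they had 2200 reads in CATAS8-79 against 633 in PR107, with a log2 ratio of -1.79 (interval -1.92 to -1.66), or a level 3.45-fold higher in CATAS8-79. The median of the 9 log2 ratios was -1.77, against a median of 0.03 over the 47601 unigenes with reads in both libraries. All 9 also passed a false discovery rate (FDR) of 0.001 or less in a two-sided Fisher's exact test and an absolute log2 ratio of 1 or more, which 5.7% of all unigenes passed with a higher level in CATAS8-79 and 12.8% in either direction. All 9 passed the fold threshold alone, as did 15.9% of all unigenes with a higher level in CATAS8-79. With the exact test of edgeR, 4 members passed at an assumed biological coefficient of variation (BCV) of 0.2, against 1.4% of all unigenes, and 0 at a BCV of 0.4, against 0.174%. As the members were chosen among called unigenes, nothing is read from these counts. In such bulk samples, fewer cells of a type and less RNA per cell cannot be told apart.

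**Figure D1:**
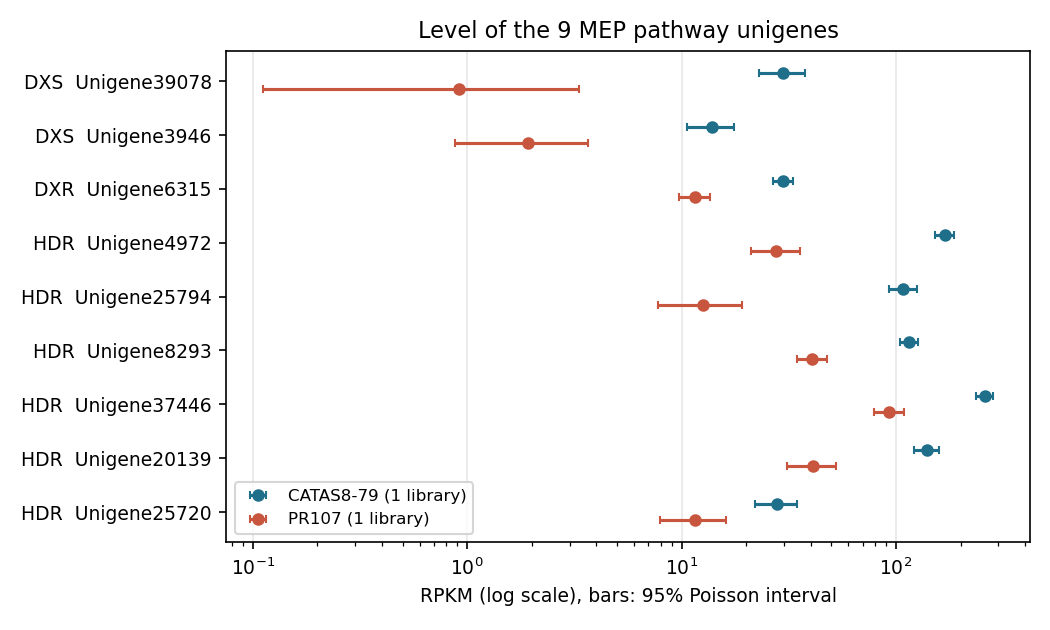
RPKM of each MEP unigene in the CATAS8-79 and the PR107 library, on a log axis, with exact Poisson intervals (counting error only). Every PR107 point lies left of its CATAS8-79 point, from 0.919 against 29.6 in Unigene39078 to 93.2 against 259 in Unigene37446.

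Over the called unigenes, DXS, the entry enzyme, had the lowest levels of the 3 enzymes in both clones and the widest difference between them. Unigene3946, 681 bp long with a best Nr hit to DXS of *H. brasiliensis*, had 65 reads in CATAS8-79 against 9 in PR107. This unigene carries the short name DXR in places in the text of the study, but both of its best hits are DXS, which is the name used here. The RPKM of Unigene3946 was 13.8 and 1.92, a log2 ratio of -2.84 (interval -4.03 to -1.83). Unigene39078, 317 bp long, had 65 reads in CATAS8-79 against 2 in PR107, an RPKM of 29.6 against 0.919. Its best Nr hit is not a rubber tree protein but DXS 3 of *Arabidopsis lyrata*, and its best Swissprot hit is the pepper entry with gene name TKT2, whereas the Swissprot hit of Unigene3946 is CLA1 of *Arabidopsis thaliana*. The different hits leave unsettled whether both unigenes belong to 1 DXS gene or to different members of the DXS family, and reads shared between such members would make the split uncertain.

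With only 2 reads in PR107, the log2 ratio of Unigene39078 was -5.01 with an interval from -8.09 to -3.10. The difference between the log2 ratios of the 2 DXS unigenes was -2.17 with an interval of -5.46 to 0.19, so counting error alone can hold them equal. Summed, DXS had 130 reads in CATAS8-79 against 11 in PR107, with a log2 ratio of -3.55 (interval -4.59 to -2.67). In fold units this is 11.7 (interval 6.34 to 24.1), and the upper end is loose because it rests on 11 reads.

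DXR, the enzyme after DXS, was covered by the longest member, Unigene6315, with 1718 bp. It had 353 reads in CATAS8-79 against 136 in PR107, an RPKM of 29.7 (interval 26.7 to 33.0) against 11.5 (interval 9.67 to 13.6). Its log2 ratio of -1.37 (interval -1.66 to -1.08) was the second smallest in size of the 9. The best Nr hit is DXR of *H. brasiliensis* and the best Swissprot hit is DXR of *A. thaliana*. As the only DXR unigene of the annotated table, it allows no comparison between pieces.

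HDR, the last enzyme, held most of the MEP reads: 78.0% of the reads of the 9 unigenes in CATAS8-79 (interval 76.3% to 79.8%) and 76.8% in PR107 (interval 73.3% to 80.0%), on 42.2% of their summed length. The 6 HDR unigenes were short, from 214 to 548 bp, and had 1717 reads in CATAS8-79 against 486 in PR107 together. All 6 have HDR of *H. brasiliensis* as best Nr hit, and 5 have a cyanobacterial ispH protein as best Swissprot hit. Unigene25794 has none.

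Unigene37446, 250 bp long, had the highest level of all members, with 448 reads in CATAS8-79 against 160 in PR107. Its RPKM was 259 in CATAS8-79, above 97.9% of all unigenes, and 93.2 in PR107, above 89.7%. Its log2 ratio was -1.47 (interval -1.74 to -1.21). Unigene8293, the longest HDR piece with 548 bp, had nearly the same ratio at a lower level.

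For Unigene8293, 437 and 153 reads gave an RPKM of 115 and 40.7 and a log2 ratio of -1.50 (interval -1.78 to -1.23). Unigene20139, 214 bp long and the shortest member, had 206 and 60 reads, an RPKM of 139 and 40.8 and a log2 ratio of -1.77 (interval -2.21 to -1.35). Unigene25720, 417 bp long, had the fewest HDR reads in CATAS8-79, 80 against 33 in PR107. Its RPKM of 27.7 and 11.5 was close to that of DXR and far under that of the other HDR pieces in CATAS8-79. Unigene25720 was also the member just inside the fold threshold, with a log2 ratio of -1.27 whose interval, -1.90 to -0.66, reached past it. Best hits were given only for the unigenes the authors had called. Any uncalled piece of these enzymes is therefore missing here, also one with equal levels in both clones.

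The remaining HDR pieces, Unigene4972 and Unigene25794, had the widest differences between the clones among the 6. Unigene4972, 312 bp long, had 364 reads in CATAS8-79 against 59 in PR107, an RPKM of 169 and 27.5 and a log2 ratio of -2.61 (interval -3.04 to -2.21). Unigene25794, 244 bp long and the piece with the HDR primers, had 182 and 21 reads, an RPKM of 108 and 12.5 and a log2 ratio of -3.10 (interval -3.83 to -2.45). In both clones only Unigene25720 had a lower RPKM than Unigene25794, 27.7 against 108 in CATAS8-79 and 11.5 against 12.5 in PR107. Only Unigene37446 had a higher RPKM than Unigene4972 in CATAS8-79, while in PR107 Unigene8293 and Unigene20139 did as well.

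**Figure D2:**
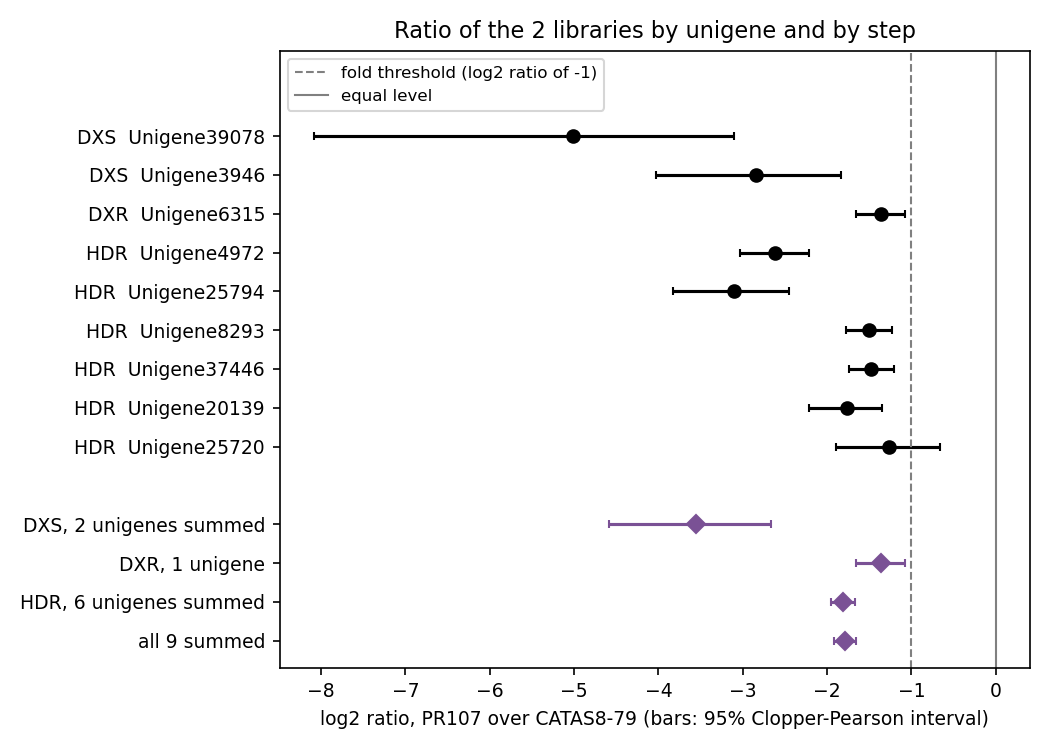
Log2 ratio of PR107 over CATAS8-79 for each MEP unigene (circles) and for the reads summed by enzyme and over all 9 (diamonds), with Clopper-Pearson intervals. The dashed line is the fold threshold at -1. The interval of Unigene25720 crosses that line, and the DXS sum of -3.55 lies left of the DXR value of -1.37 and the HDR sum of -1.81.

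By the intervals of their differences, the ratios of the HDR pieces fell into 2 groups. A difference between the log2 ratios of 2 pieces does not depend on how the libraries are scaled, and it was computed with an exact conditional interval for all 15 pairs. In 8 of them the interval left out 0, and these were the 8 pairs that set Unigene4972 or Unigene25794 against one of the other 4 pieces. The 6 pairs among those 4 all held 0, with Unigene8293 and Unigene37446 differing by -0.03 (interval -0.41 to 0.36). Unigene25794 and Unigene4972 differed by -0.49 (interval -1.33 to 0.30). The largest separation, Unigene25794 against Unigene25720, was -1.84 (interval -2.79 to -0.90). This grouping was noticed in the data and has no replicate behind it.

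The split ran through pieces of what the study treats as a single gene. Unigene4972, Unigene25794, Unigene8293 and Unigene37446 are matched there to one HbHDR, and 4 of their 6 pairs had an interval that left out 0. In CATAS8-79 their RPKM ranged 2.40-fold, from 108 to 259, and in PR107 it ranged 7.44-fold, from 12.5 to 93.2. Summed, the 4 had a log2 ratio of -1.85 (interval -2.02 to -1.69) and the other 2 HDR unigenes one of -1.61 (interval -1.96 to -1.27). Those sums differed by -0.24 (interval -0.63 to 0.15), so grouping by the match to HbHDR left the ratio within counting error. The sequences of the unigenes were not used here, so where the pieces lie on the transcript, and whether alleles or copies of HDR share their reads, was not tested. The study itself describes the pattern of HbHDR as similar in the 2 clones, although it also lists Unigene25794 as higher in CATAS8-79. Its quantitative PCR used latex of other trees, which was not compared here.

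The unequal ratios also show as a different make-up of the HDR reads in each library. Unigene4972 gave 21.2% of the HDR reads in CATAS8-79 (interval 19.3% to 23.2%) and 12.1% in PR107 (interval 9.37% to 15.4%). Unigene25794 gave 10.6% (interval 9.18% to 12.2%) and 4.32% (interval 2.69% to 6.53%). In both pieces the share was lower in PR107 and the intervals did not meet. Unigene37446 took 26.1% and 32.9% of the reads on 12.6% of the length, and its intervals, 24.0% to 28.2% and 28.8% to 37.3%, just missed each other. Unigene25720 was at the other end, with 4.66% and 6.79% of the reads on 21.0% of the length. Coverage of the HDR pieces was thus uneven within each library, and a level of HDR depends on which piece is read.

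**Figure D3:**
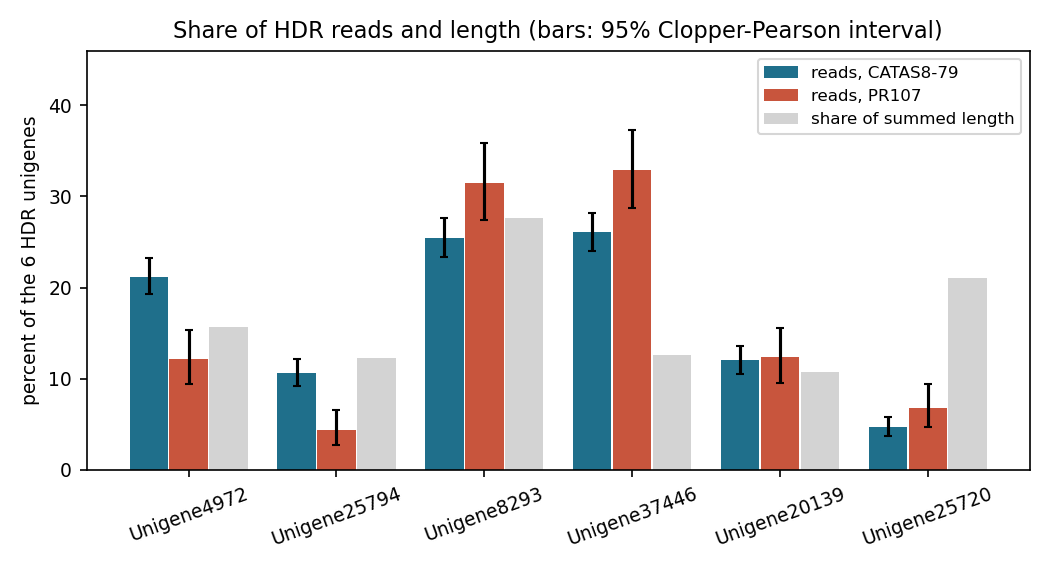
Share of the reads of the 6 HDR unigenes that fell on each of them in CATAS8-79 and PR107, in percent with Clopper-Pearson intervals, beside its share of their summed length. Unigene4972 and Unigene25794 take smaller shares in PR107 (12.1% and 4.32%) than in CATAS8-79 (21.2% and 10.6%).

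Per length and over these called unigenes alone, HDR had the highest level, DXR lay below it and DXS was lowest in both clones. In CATAS8-79 the RPKM over the summed length was 125 for HDR (interval 119 to 131), 29.7 for DXR and 18.8 for DXS (interval 15.7 to 22.4). In PR107 it was 35.7 for HDR (interval 32.6 to 39.0), 11.5 for DXR and 1.60 for DXS (interval 0.801 to 2.87). No intervals of neighbouring enzymes met in either clone. The order of HDR and DXR rests on the sum, since the HDR piece Unigene25720 had an RPKM of 27.7 against 29.7 for DXR in CATAS8-79 and 11.5 for both in PR107. Likewise Unigene39078 of DXS had an RPKM of 29.6 in CATAS8-79, level with DXR.

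The distance between the enzymes differed between the libraries, most of all for DXS. DXR was 1.58-fold above DXS in CATAS8-79 (interval 1.29 to 1.94) and 7.18-fold in PR107 (interval 3.89 to 14.7). HDR was 6.64-fold above DXS in CATAS8-79 (interval 5.55 to 8.0) and 22.2-fold in PR107 (interval 12.3 to 44.8). HDR over DXR moved the other way, from 4.21-fold in CATAS8-79 (interval 3.75 to 4.73) to 3.09-fold in PR107 (interval 2.55 to 3.77), with intervals that overlap slightly.

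As differences of log2 ratios, DXS lay -2.19 from DXR (interval -3.27 to -1.24) and -1.74 from HDR (interval -2.79 to -0.84), and HDR lay -0.44 from DXR (interval -0.77 to -0.11). Without Unigene4972 and Unigene25794 the HDR pieces spanned log2 ratios of -1.77 to -1.27, which holds the DXR value of -1.37. All 3 differences of the sums were larger than counting error, and that of HDR from DXR was the smallest. The sums hold called pieces only, so the filter on the clone ratio enters these differences too, to an extent that was not tested.

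The number of a unigene moved with its ratio in these libraries, which touches a pair of members. From number 1 to 29886 every number is listed, and the median log2 ratio of the 29886 unigenes was 0.01. From 29887, the first range with unlisted numbers, to 40539 it was -0.99, and a count of 3 or fewer was found for 39.3% of its unigenes in PR107 and for 11.4% in CATAS8-79. The upper end of this range was set from the direction of the called unigenes. Unigene37446 (HDR) and Unigene39078 (DXS) lie in it, and the other 7 members lie below 29887.

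The 3066 unigenes of that range with 50 or more reads in all, as both members have, had a median log2 ratio of -0.14, far nearer 0 than the range as a whole. Among them, 4.04% had a log2 ratio as low as Unigene39078 and 14.3% one as low as Unigene37446. Among the 24558 such unigenes of the first range, 0.301% had a ratio as low as Unigene25794, 0.411% as low as Unigene3946 and 0.55% as low as Unigene4972. The other 4 members of the first range had 1.82% to 4.43% of its unigenes at or below them. As the members were chosen among called unigenes, these low places follow in part from that choice, and nothing is read from them. Without Unigene37446 and Unigene39078 the 7 remaining unigenes had a summed log2 ratio of -1.83, against -1.79 with them. DXS without Unigene39078 is Unigene3946 alone, at -2.84.

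**Figure D4:**
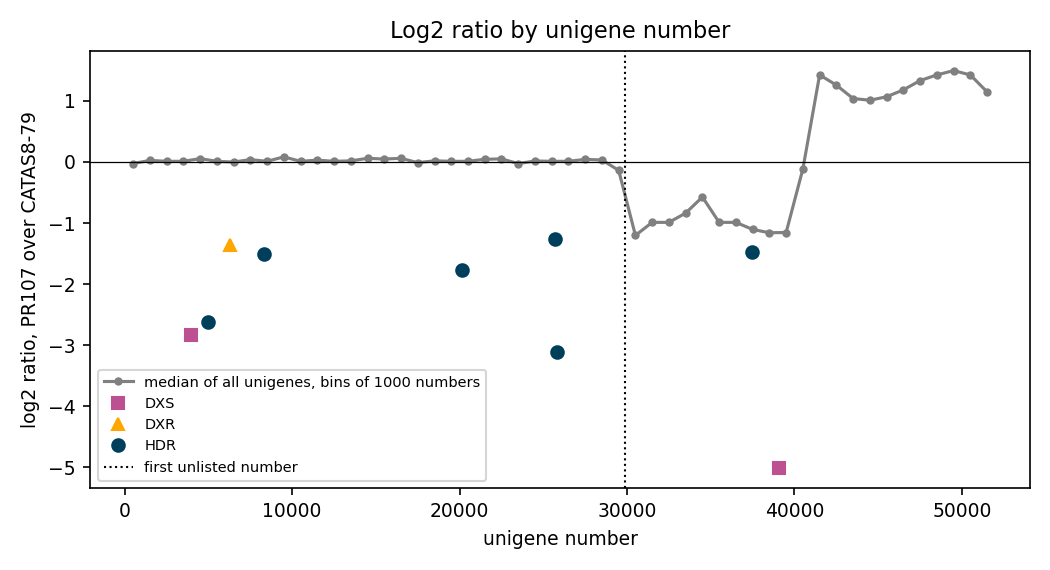
Median log2 ratio of all unigenes in bins of 1000 unigene numbers (grey line) and the log2 ratio of each MEP unigene against its number. The dotted line is the first unlisted number, 29887, right of which the grey line drops to about -1 before it rises above 0. Unigene37446 and Unigene39078 lie right of the dotted line, and the 7 other members lie left of it where the grey line is near 0.

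Of the enzymes between DXR and HDR, none was found among the annotated unigenes. The search words for the cytidylyl transferase (MCT), the kinase (CMK), the cyclodiphosphate synthase (MDS) and the hydroxymethylbutenyl diphosphate synthase (HDS) found 0 unigenes each, and those for isopentenyl diphosphate isomerase (IDI) found 0. Only called unigenes carry a best hit, so these zeros do not bear on the level of the enzymes in latex. For the same reason the unigenes of the lists that follow were called by construction. Their direction is to be read beside that of all 6577 calls, of which 55.6% were higher in PR107. That share changed with unigene number. Calls lower in PR107 made up 46.9% from number 1 to 29886, 79.9% from 29887 to 40539 and 9.49% from 40540 to 51829. The bound at 40539 was itself set from the direction of calls. The ent-kaurene unigenes all lie in the last range, so their shared direction is that of most calls there. The pathway is thus seen here at its first, second and last reaction.

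Prenyl diphosphate synthases join the units made by HDR into longer chains, and their unigenes went in both directions. Both found by the search words, which were for the geranyl, geranylgeranyl and solanesyl enzymes, were called higher in PR107. Unigene21852, with a best hit to geranyl-diphosphate synthase of *H. brasiliensis*, had an RPKM of 32.4 in CATAS8-79 and 85.1 in PR107. Unigene4306, with a best hit to geranylgeranyl-diphosphate synthase, had 41.0 and 82.2. The Swissprot hit of both is a chloroplast protein named only as related to geranylgeranyl pyrophosphate synthase. Farnesyl diphosphate synthase, an enzyme of the cytosol, was not among the search words and was looked up after the values were seen. Its unigene Unigene33714 was called higher in CATAS8-79, with 36 reads there and 9 in PR107. The ent-kaurene list held 3 unigenes, all called higher in PR107, with 33 and 136 reads together. Of these, Unigene51516 and Unigene51609 have best hits to ent-kaurene synthase, a plastid enzyme on the route to gibberellins, and Unigene51260 has one to a kaurenoic acid hydroxylase of *Stevia rebaudiana*, which is not on that route.

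The carotenoid list held 3 called unigenes, 2 of them higher in CATAS8-79. Unigene49387, named phytoene dehydrogenase-like, had 774 reads in CATAS8-79 against 127 in PR107, and Unigene40338, a zeaxanthin epoxidase by its Swissprot hit, had 43 and 12. The third, Unigene51419, had 11 and 254 reads, and its hit, homogentisate 1,2-dioxygenase, breaks down tyrosine rather than making an isoprenoid.

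HDR takes electrons from ferredoxin in plant plastids, and the list of iron-sulfur and ferredoxin proteins had 11 called unigenes, 3 of them higher in CATAS8-79 and 8 in PR107. Unigene31859, a non-photosynthetic ferredoxin with Ferredoxin-3 as Swissprot hit, had 191 reads in CATAS8-79 against 89 in PR107, with a log2 ratio of -1.09 (interval -1.47 to -0.72). Unigene51669, a chloroplast ferredoxin I, had 0 reads in CATAS8-79 against 482 in PR107. The list also holds mitochondrial proteins of the respiratory chain that are no partners of HDR. Unigene22786, an iron-sulfur protein of NADH dehydrogenase, had 742 and 1555 reads, and Unigene15583, an iron-sulfur subunit of succinate dehydrogenase, had 89 and 191.

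Of 6 unigenes for the carbon entry, which supplies or uses the substrates of DXS, 2 were called higher in CATAS8-79 and 4 in PR107. The examples named are the 4 with the most reads. Of these, the cytosolic triosephosphate isomerase Unigene15657 had 97 reads in CATAS8-79 against 284 in PR107. The glyceraldehyde 3-phosphate dehydrogenases Unigene20032 and Unigene51750 were also higher in PR107, with 70 against 147 and 2 against 196 reads. The chloroplastic transketolase Unigene22647, an enzyme related to DXS in sequence, had 124 and 61 reads and thus a log2 ratio of -1.01 (interval -1.48 to -0.56).

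Of 6 mevalonate pathway unigenes, 3 were called higher in each clone, and their summed RPKM was 153 in CATAS8-79 and 165 in PR107. The 4 with the most reads were Unigene14484, an acetyl-CoA acetyltransferase of the first reaction, with 257 and 112 reads, and 3 of the 5 pieces with best hits to hydroxymethylglutaryl-CoA reductase. These 3 were higher in PR107, with 93 and 214 reads (Unigene28394), 53 and 176 (Unigene2975) and 55 and 143 (Unigene11873). The other 2 pieces of the reductase were higher in CATAS8-79, with 79 and 4 reads (Unigene29798) and 34 and 0 (Unigene38121). The study matches the reductase unigenes to several genes. Unigene28394 and Unigene38121 share a match there, as do Unigene11873 and Unigene29798, and each pair went in opposite directions.

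The 8 unigenes of the photosystem I P700 apoproteins, which plastid DNA encodes, were looked up after the values were seen. Their best hits name only the apoproteins A1 and A2, so they are pieces of few genes and not 8 separate observations. All 8 had a higher level in CATAS8-79, with 14323 reads there and 5150 in PR107 and log2 ratios from -2.18 in Unigene18922 to -1.22 in Unigene16588. Other photosystem unigenes went in both directions, most of them higher in PR107. In the green tissue list, which holds them, 6 of the 8 unigenes were called higher in PR107. Among these, Unigene37668, the plastid-encoded subunit IX of photosystem I, had 197 and 905 reads, and Unigene18389, its subunit VIII, had 173 and 377. The 2 higher in CATAS8-79 were Unigene12717, the antenna protein Lhca3, with 147 and 38 reads, and Unigene3901, related to the oxygen-evolving complex, with 45 and 11. The part of these transcripts in the MEP values was not tested.

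The unigenes most like each enzyme were sought by the distance of log2 RPKM over the 2 libraries, among annotated unigenes with 20 or more reads in each. Nearest to the DXS sum was Unigene33900, a proline-rich family protein, at a distance of 0.26 with an RPKM of 19.1 and 1.34, followed by Unigene5480, a zinc finger of CCHC type, and Unigene20319 at 0.66 and 0.69. With 11 reads of DXS in PR107, only unigenes much longer than most could reach the read minimum at its level, so the distances of the DXS neighbours are not to be compared with the others. The neighbours of DXR were Unigene9714, proteasome protein-related, Unigene29740, an aminophospholipid ATPase, and Unigene33055, a GTP-binding protein, at 0.04 to 0.05. For the HDR sum they were Unigene115, Unigene21536 and Unigene43648 at 0.08 to 0.10, none with a named function in its best Nr hit. With 2 libraries such likeness describes a pair of levels only.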

How the data were processed

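The authors assembled Illumina paired-end reads of both libraries de novo with SOAPdenovo (k-mer 29) and placed the reads on the unigenes; aligner settings are not given in the sources used here. The deposited raw read counts were the basis of every value. The deposited RPKM, which the methods call TPM, differs from the count scaled by length and total by at most 5.0e-05. The authors' log2 ratio, p-value and FDR columns were not used, and mm9, listed by the labels as build, is a mouse genome and played no part. Unigene length in bp is as deposited.

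Intervals are Clopper-Pearson for ratios and shares, exact Poisson for levels and exact conditional for differences of ratios. Calls, used for background and list counts, took Fisher's exact test with Benjamini-Hochberg adjustment over 51192 unigenes, at FDR ≤ 0.001 and |log2 ratio| ≥ 1, tested on simulated data. Alternatives were TMM and median-ratio scaling, read and length filters, a stricter fold, edgeR's exact test with an assumed BCV, and other ways to sum the pieces. These calls compare 2 libraries, not the clones; edgeR's quasi-likelihood test could not be fitted with 1 library per clone. The members and the gene lists were chosen with earlier results of these data known. The text names the 9 members, the 3 unigenes nearest to each enzyme, all that the MEP search words found and up to 4 examples per list. Tools were Python 3.11.15, scipy 1.17.1, pandas 2.3.3, edgeR 4.0.16 and DESeq2 1.42.0 (size factors) in R 4.3.3. RefSeq gene names were not used.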

Additional observations from a re-analysis of the deposited data

How the results depend on the processing

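Since every member, chosen among called unigenes, had a negative log2 ratio, no way of summing them could turn the sign, and only the size of the values is given. TMM and median-ratio scaling moved every log2 ratio by -0.05 and -0.03, and the 18 member values so obtained stayed within their intervals. The HDR sum of -1.81 moved to -1.64 as the median of the pieces, -1.65 without Unigene4972, -1.50 with pieces of 500 bp or longer (Unigene8293 alone) and -1.61 with the 2 pieces not matched to HbHDR. DXS without Unigene3946 was -5.01. The sum over 9 was -1.51 with pieces of 500 bp or longer and -2.24 with equal weight of the 3 enzymes. The DXS level in CATAS8-79, an RPKM of 18.8, was 13.8 on the longest piece and 29.6 on the highest. The HDR level was 115 and 40.7 in CATAS8-79 and PR107 on the longest piece and 259 and 93.2 on the highest, and the mean of the pieces gave 136 in CATAS8-79. Of all 51192 unigenes, 6577 were called, and 2775 passed at an absolute log2 ratio of 2 or more, 1205 of them higher in CATAS8-79. The exact test of edgeR called 1515 at an assumed BCV of 0.2 and 190 at 0.4. Of these, 719 and 89 were higher in CATAS8-79, which is 1.4% and 0.174% of all unigenes. The members passing, counted after the data were seen, were 4 at the stricter ratio and 4 at 0.2 (Unigene3946, Unigene39078, Unigene4972 and Unigene25794 in both), and 0 at 0.4. The cause of these shifts was not tested. No paired analysis was possible because each clone has 1 library, and for the same reason no replicate was left out. DXS in PR107 rests on 11 reads, the thinnest count behind any enzyme here.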
